A study of Mus musculus with 18 samples.

Results

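At P5, livers of newborn mice injected with a miR-497a-5p mimic, a synthetic microRNA, were compared with livers of pups given a scrambled mimic, 2 days after the second injection. The members were the 6 liver libraries labelled P5, of 18 in the series: 3 from pups given the miR-497a-5p mimic and 3 from pups given the scrambled mimic, taken by the day and treatment in their titles. All pups were C57BL/6J, and all received intraperitoneal injections on P1 and again on P3, so every liver in the comparison, scrambled ones included, came from a pup injected with a synthetic mimic. The protocol describes doses of 10 and 100 mg per kg, with 6 mice per group at each dose, and which of them a library received is not stated in its label. Litters were randomized among nursing dams, and no label ties a library to a litter, so p-values measure the spread between these livers. The other 12 libraries came from P7 and P14 livers, 3 mimic and 3 scrambled at each day, and serve here for the common estimate of spread and for comparison of days. The question of the comparison was what the liver transcriptome showed at the earliest day sampled.

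MicroRNAs are loaded into Argonaute proteins and pair with transcripts through a short seed near their 5′ end, mostly in the 3′ untranslated region (UTR), which lowers translation and speeds decay of the transcript. miR-497a-5p belongs to the miR-15/16 family, whose members share a seed and are known for targeting cyclins, checkpoint kinases and Bcl2, and for acting in the withdrawal of cells from the cell cycle after birth. The liver around birth is also a blood-forming organ, so its RNA comes from hepatocytes and from red cell, neutrophil, platelet and B cell precursors. It takes up much of the short RNA that is injected into an animal.

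The mature sequences of the family are shown because the shared seed defines which transcripts a mimic could pair with. They are the RefSeq sequences on GRCm38.p6 and not the synthetic mimic itself, whose strands and modifications were not analysed here. Bases 2 to 8, the seed, are in capitals.
miR-497a-5p: cAGCAGCAcacugugguuugua
miR-195a-5p: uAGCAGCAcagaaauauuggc
miR-15a-5p: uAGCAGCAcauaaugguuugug
miR-15b-5p: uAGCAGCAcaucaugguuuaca
miR-16-5p: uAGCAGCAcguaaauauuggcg
miR-322-5p: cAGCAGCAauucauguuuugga
All 6 carry the same seed, AGCAGCA. The miR-497a-5p sequence lies at chr11:70234730-70234751 on the plus strand, and miR-195a-5p lies nearby on the same strand at chr11:70235062-70235082. The libraries hold polyadenylated RNA, in which mature microRNAs are not measured, so the level of the mimic in these livers is not known from them.

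The perfect match to the seed in a transcript reads TGCTGCT, and with a following A it becomes the 8-mer TGCTGCTA. Sites of 8 listed targets, each in an annotated 3′ UTR, are shown with the 8-mer in capitals, since the direct test of the mimic at P5 is whether such transcripts were lower.
Bcl2, chr1:106540798-106540819, minus strand: aataagaaaccctgTGCTGCTA
Ccnd2, chr6:127128541-127128562, minus strand: aatgtttcacggtgTGCTGCTA
Ccne1, chr7:38098023-38098044, minus strand: tcttattttgtaagTGCTGCTA
Cdk6, chr5:3524531-3524552, plus strand: caagttgcacagggTGCTGCTA
Wee1, chr7:110142654-110142675, plus strand: ttgccttgtgaattTGCTGCTA
Chek1, chr9:36710290-36710311, minus strand: cctggtgaatagagTGCTGCTA
Vegfa, chr17:46018590-46018611, minus strand: cattttcttatatcTGCTGCTA
Tle4, chr19:14448473-14448494, minus strand: atgtacagtgccttTGCTGCTA
These sites were found by matching letters in the longest 3′ UTR of each gene in GENCODE M21 on GRCm38, and a match is not a shown binding site.

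Values are scaled counts, read counts per gene that the authors brought to a common library size and rounded. They summed to 4025727 to 4076582 in the 3 mimic libraries and 3954405 to 4248257 in the 3 scrambled libraries. What 1 read was worth after scaling, estimated from gaps among the low whole numbers, was 0.91 to 1.153 in mimic and 0.888 to 1.413 in scrambled libraries, which puts the depth between 3006551 and 4727604 reads. The scrambled livers differed more among themselves: the mean over genes of the squared difference over the sum was 2.24 to 4.68 between mimic pairs and 6.89 to 8.78 between scrambled pairs. All 6 are above the value of about 1 that reads drawn at random from 1 library would give, and each library was counted as its own replicate. Scrambled replicate 2 stood above the other 5 libraries by a log2 gap of 1 or more in 25 genes, many of them neutrophil genes (Ly6g 177, against 32 to 59 in the other 5), together with Orm1 (322, against 11 to 54) and the lung gene Sftpc (202, against 0 to 49). Scrambled replicate 3 stood above in 8 genes, among them genes of nerve cells (Cacna1b 165, against 32 to 56), and below in 15, which include the early B cell genes Igll1 (8, against 33 to 81) and Pax5 (38, against 93 to 151). Values also leaned with transcript length, from a rank correlation of 0.197 in scrambled replicate 1 to -0.352 in scrambled replicate 2, with the mimic libraries at -0.307, -0.0207 and -0.210. Sex was not labelled. The summed value of 4 Y-linked genes was 0, 1344 and 116 in the mimic libraries and 1387, 1395 and 15 in the scrambled ones, and mimic replicate 3 also had 1568 of Xist, the transcript of the inactive X chromosome. Hepatocyte markers such as Alb and Ttr were abundant in all 6 livers. The summed markers of skeletal muscle were at 8 to 13 in mimic and 7 to 11 in scrambled livers, and those of fat at 0 to 1 in mimic and 1 to 2 in scrambled livers.

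At P5 no gene passed the test across all genes. Of 14104 genes averaging at least 10 scaled counts across the 18 libraries, 0 (0.0%) had a limma adjusted p under 0.05 on log2(value + 1), and the smallest adjusted p was 1. At an unadjusted limma p under 0.05 there were 266 genes (1.89%), 179 higher (1.27%) and 87 lower (0.617%) in mimic livers. That is fewer than a threshold of 0.05 lets through on average when no gene differs, so the 266 are not an excess. For comparison, the same count was 7.61% of genes at P7 and 5.41% at P14. Scrambled replicate 3 at P7 had 30412 genes above 0, where the other libraries had 19198 to 22132. At P7 the median log2 difference of marker genes of other tissues was -1.90. The part of single libraries in the count at P7 was not tested. At P5 the 3 mimic values lay entirely above the 3 scrambled values in 407 genes (2.89%) and entirely below them in 299 (2.12%). Nothing below therefore rose or fell by the test, and the genes named are those of smallest p, given with their values as a description.

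Differences were small for most genes. The median log2 difference, mimic minus scrambled, was -0.01, with 90% of genes between -0.28 and 0.34, and the median standard error was 0.15. For 9894 genes (70.2%) the limma 95% interval lay within a 1.5-fold difference either way, and for 12496 (88.6%) within a 2-fold difference. A log2 difference beyond 1 either way was seen in 86 genes, 60 higher and 26 lower in mimic livers. Of these, 43 did not overlap between groups, where 5.01% of all genes did not. Picking genes by a large difference makes a lack of overlap more likely by itself. These 86 were weakly expressed, with a median level of 22.1 scaled counts against 212 over all genes tested. Among the 9989 genes with a mean of 100 or more at P5, 22 differed by more than 1.5-fold and 6 by more than 2-fold.

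The 10 genes of smallest p without overlap on the higher side were weakly to moderately expressed, with log2 differences from 0.50 to 1.39. Itga7 (chromosome 10, 128933818 to 128958282), which encodes an integrin subunit that binds laminin, had 56, 51 and 60 scaled counts in mimic livers, against 29, 28 and 39 in scrambled livers. The groups did not overlap, and the mimic livers were close together. Its log2 difference was 0.79 (SE 0.19, limma p 0.000626, adjusted p 1), the smallest p of the comparison. Itga7 overlaps Mettl7b on the opposite strand, which averaged 664 scaled counts, and the labels do not say whether reads were counted by strand. Fdft1 and Col4a2, named further on, likewise overlap expressed genes on the opposite strand (Ctsb and Col4a1).

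Col15a1 (chromosome 4, 47208161 to 47313167), a collagen of basement membranes, had 62, 92 and 68 in mimic livers, against 49, 42 and 15 in scrambled livers. Scrambled replicate 3 was far below the rest, and the log2 difference was 1.18 (SE 0.32, limma p 0.00158), or 0.67 without that library. Mme (chromosome 3, 63295561 to 63386030), the membrane peptidase neprilysin, had 29, 43 and 40 in mimic livers, against 19, 18 and 15 in scrambled livers, a log2 difference of 1.05. Prss35 (chromosome 9, 86743649 to 86758443), of the serine protease family, had 87, 180 and 133 in mimic livers, against 61, 75 and 56 in scrambled livers, a log2 difference of 1.00 (SE 0.25). Here the scrambled livers were close together and mimic replicate 1 lay nearer to them than to mimic replicate 2.

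Sult1c2 (chromosome 17, 53829637 to 53846339), a cytosolic sulfotransferase, was the most abundant of the 10, at 318, 346 and 298 in mimic livers, against 275, 210 and 202 in scrambled livers. Its log2 difference was 0.50 (SE 0.13, limma p 0.00104). Krt19 (chromosome 11, 100140810 to 100146120), a keratin of bile duct cells, had 49, 79 and 134 in mimic livers, against 39, 41 and 17 in scrambled livers, with the largest log2 difference of the 10 at 1.39 (SE 0.40). The other 4 were Serinc2 at 0.89, Fam131c at 0.97, and 2 genes of zinc finger proteins, Zfp641 at 0.85 and Zbtb7c at 1.10, on the same scale. Of the 10, Zfp641 alone has a seed match in its longest 3′ UTR.

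The 10 genes of smallest p without overlap on the lower side had log2 differences from -1.23 to -0.30. Tff3 (chromosome 17, 31125306 to 31129646), a trefoil peptide secreted by mucous epithelia, had 94, 83 and 89 in mimic livers, against 153, 218 and 238 in scrambled livers. All 3 mimic livers lay well under the lowest scrambled liver, and the log2 difference was -1.16 (SE 0.33, limma p 0.00263, adjusted p 1). Slc19a2 (chromosome 1, 164249046 to 164265385), a thiamine transporter, had 592, 553 and 558 in mimic livers, against 745, 744 and 647 in scrambled livers. Its groups were tight and its difference small, at -0.32 (SE 0.10). Both Tff3 and Slc19a2 hold the seed match TGCTGCT in their longest 3′ UTR, 1 in Tff3 and 2 in Slc19a2, as do 3550 of the 13204 tested genes with an annotated 3′ UTR.

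Iigp1 (chromosome 18, 60376029 to 60392627), a GTPase induced by interferon, was the most abundant of the 10, at 995, 1093 and 990 in mimic livers, against 1264, 1315 and 1205 in scrambled livers. The log2 difference was -0.30 (SE 0.09, limma p 0.00504). Mapt, which encodes the microtubule protein tau, had 14, 18 and 9 in mimic livers, against 22, 27 and 56 in scrambled livers, a log2 difference of -1.23 with scrambled replicate 3 the highest by far, or -0.84 without it. Grb7, a signalling adaptor, differed by -0.30, Kcnn2, a potassium channel, by -0.56, and the zinc finger gene Zfp667 by -0.83. The last 3 are predicted genes: Gm29571 at -1.04, Gm45531 at -0.46 and Gm5524 at -0.60.

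**Figure D1:**
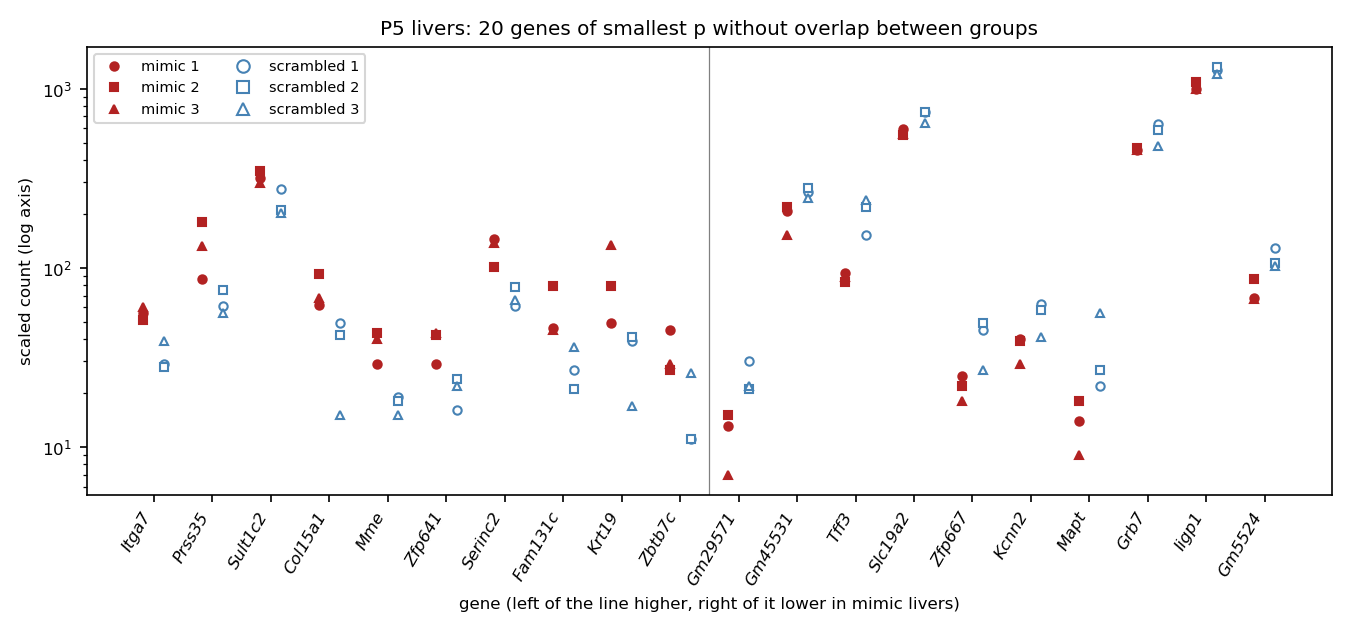
Scaled counts (log axis) of the 20 genes of smallest p without overlap between groups, with a filled red symbol for each mimic liver and an open blue symbol for each scrambled liver, and the replicate number shown by the shape. In Tff3 the 3 mimic livers sit at 83 to 94 and the scrambled livers at 153 to 238, while in Col15a1 and Krt19 scrambled replicate 3 is the lowest point.

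Among abundant genes the differences were smaller still. Of the genes with a mean of 1000 or more at P5, the 5 of smallest p on the lower side were Iigp1, Cldn1, Abcd2, Osgin1 and Otc. Cldn1, the tight junction protein claudin 1, had 1263, 1210 and 1237 in mimic livers, against 1332, 1606 and 1286 in scrambled livers. The groups did not overlap, with scrambled replicate 2 far above the rest, and the log2 difference was -0.18 (SE 0.08, limma p 0.046), or -0.08 without that library. Cldn1 has 2 seed matches, 1 of them an 8-mer. On the higher side the smallest limma p was 0.183, for Col4a2, a basement membrane collagen, at 1204, 1359 and 1188 in mimic livers, against 1519, 1085 and 750 in scrambled livers. These groups overlapped, and without scrambled replicate 3 the log2 difference was -0.04.

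Listed targets of the miR-15/16 family were about as often higher as lower at P5. The list holds 35 genes, all of which were tested. In their longest 3′ UTR 23 have an 8-mer, 9 have the match to bases 2 to 8 without the following A, 1 has only the match to bases 2 to 7 with an A, and 2 (Anln and Plag1) have none. In mimic livers 18 were higher and 17 lower, where 45.0% of all genes were higher. Their median log2 difference was 0.00, against -0.01 over all genes tested, and single genes ran from -0.19 to 0.41. In none of the 35 did the mimic and scrambled livers separate, where 5.01% of all genes did. The lower end of the limma 95% interval stayed above a 1.5-fold lower level for 32 of the 35, and above a 2-fold lower level for all 35.

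Bcl2, which protects cells from apoptosis and is a known target of the family, had 107, 146 and 105 scaled counts in mimic livers, against 90, 73 and 105 in scrambled livers. Mimic replicate 3 and scrambled replicate 3 had the same value, and mimic replicate 2 was the highest. Its log2 difference was 0.41 (SE 0.18, 95% interval 0.03 to 0.80, limma p 0.0365, adjusted p 1), on the higher side, and it was the only target with an unadjusted p under 0.05, 1 of 35 where 1.89% of all genes had one. The difference was 0.26 without mimic replicate 2 and 0.28 without scrambled replicate 2. Bcl2 overlaps other annotated genes, each with a mean under 1 scaled count at P5.

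The cyclins showed no common direction. Ccnd1, which drives entry into the cell cycle, had 822, 913 and 803 in mimic livers, against 850, 781 and 804 in scrambled livers, a log2 difference of 0.06 (95% interval -0.14 to 0.26). Ccnd2 had 411, 486 and 409 in mimic livers, against 452, 335 and 345 in scrambled livers, a difference of 0.21 (95% interval -0.06 to 0.49). Ccne1, which acts at the start of DNA replication, had 458, 350 and 458 in mimic livers, against 392, 398 and 464 in scrambled livers, a difference of 0.01 (95% interval -0.46 to 0.47). In each of these genes the groups overlapped. Ccnd3, at -0.04, and the cyclin partner Cdk6, at -0.06, lay near 0.

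Genes of checkpoints and mitosis on the list lay near 0 as well. Chek1, the checkpoint kinase of replication stress, had the lowest difference of the list at -0.19 (95% interval -0.51 to 0.14), or -0.08 without scrambled replicate 3, with 209, 176 and 204 in mimic livers, against 211, 203 and 259 in scrambled livers. Wee1, the kinase that holds back mitosis, had 237, 228 and 263 in mimic livers, against 269, 212 and 244 in scrambled livers, a difference of 0.01. Cdc25a, the phosphatase that opposes Wee1, was at -0.07 and the transcription factor gene E2f3 at -0.12. The mitotic genes Kif23, Birc5 and Anln were at -0.02, -0.09 and -0.07.

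Growth factor and signalling targets spread around 0 in the same way. Vegfa, the growth factor of blood vessels, had 496, 464 and 489 in mimic livers, against 412, 586 and 463 in scrambled livers, a difference of 0.00 (95% interval -0.25 to 0.26). Tle4, a transcriptional corepressor, had 164, 173 and 146 in mimic livers, against 212, 164 and 174 in scrambled livers, a difference of -0.18. The insulin receptor gene Insr was at -0.17 and the kinase gene Map2k1 at 0.01. Hmga2, a chromatin protein of growing tissue, was at 0.39 with a wide interval of -0.40 to 1.19 at a level of 23 to 43 scaled counts.

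**Figure D2:**
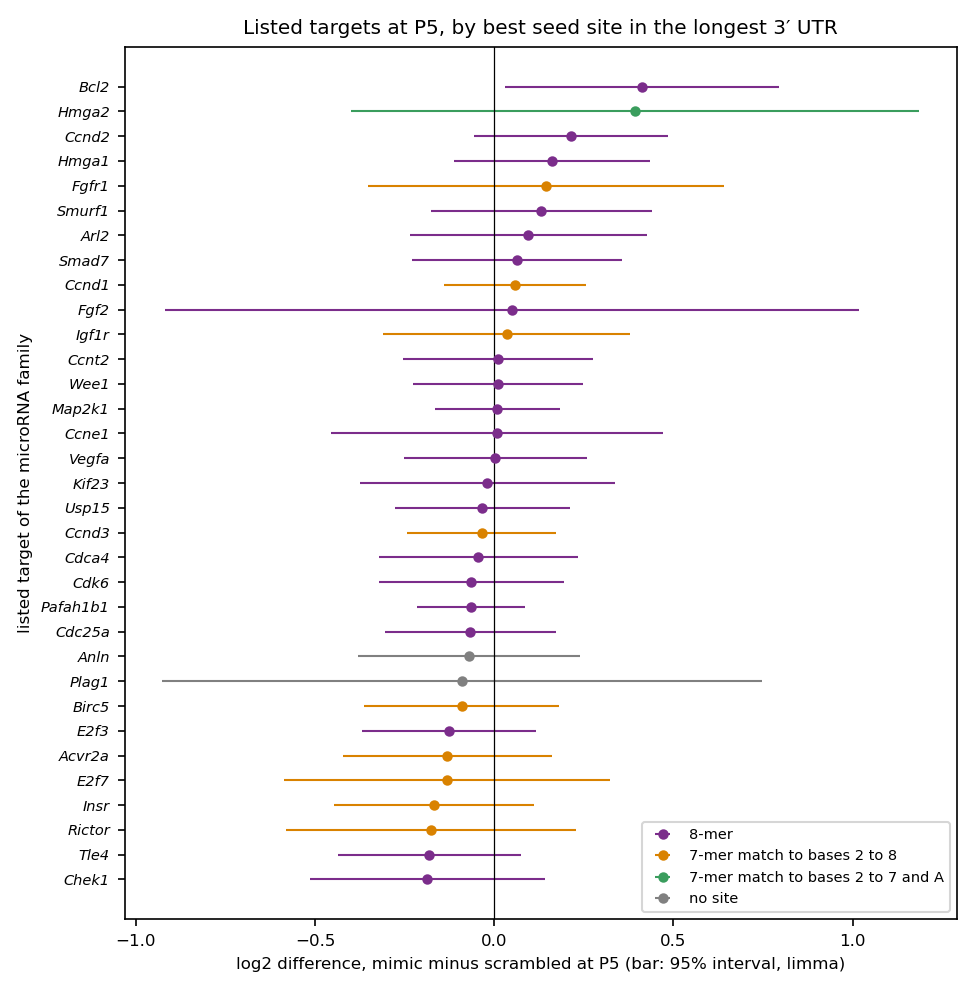
Log2 difference, mimic minus scrambled, at P5 for 33 of the 35 listed targets of the microRNA family (points) with limma 95% intervals (bars), coloured by the best seed site in the longest 3′ UTR. The points run from -0.19 for Chek1 to 0.41 for Bcl2, and the interval of Bcl2 is the only one that leaves out 0.

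Transcripts with a seed site, taken from sequence alone, lay close to those without one. Of 13204 tested genes with an annotated 3′ UTR, 666 had an 8-mer and a median log2 difference of -0.0113, 2884 had the match to bases 2 to 8 without the A and a median of -0.00824, and 499 had the match to bases 2 to 7 with an A and a median of -0.0169. The 9155 genes without a site had a median of -0.0172, so each class lay within 0.01 of it on the log2 scale. The 348 genes with 3 or more matches to bases 2 to 8 had a median of -0.0140. Of the 8-mer genes 53.6% were lower in mimic livers, against 56.0% of genes without a site. In each of 4 equal bins of 3′ UTR length, genes with a match lay slightly above genes without one, at -0.0119 against -0.0248 in the bin of longest 3′ UTRs.

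Single livers differed in this measure by more than the groups did. The median of 8-mer genes minus that of genes without a site, each as the deviation from the mean of the 6 libraries, was -0.0134, 0.0425 and -0.0266 in mimic livers, against 0.0831, -0.0628 and -0.0237 in scrambled livers. Scrambled replicates 1 and 2 were the ends of the range, and they were also the ends of the range of correlation with transcript length. Genes with an 8-mer have longer transcripts, with a median of 4778 bases against 3003 for genes without a site. The part of length in the value of each library was not tested, and with the length slope as a covariate the median for genes with a match to bases 2 to 8 was 0.000212, against -0.00915 without it.

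**Figure D3:**
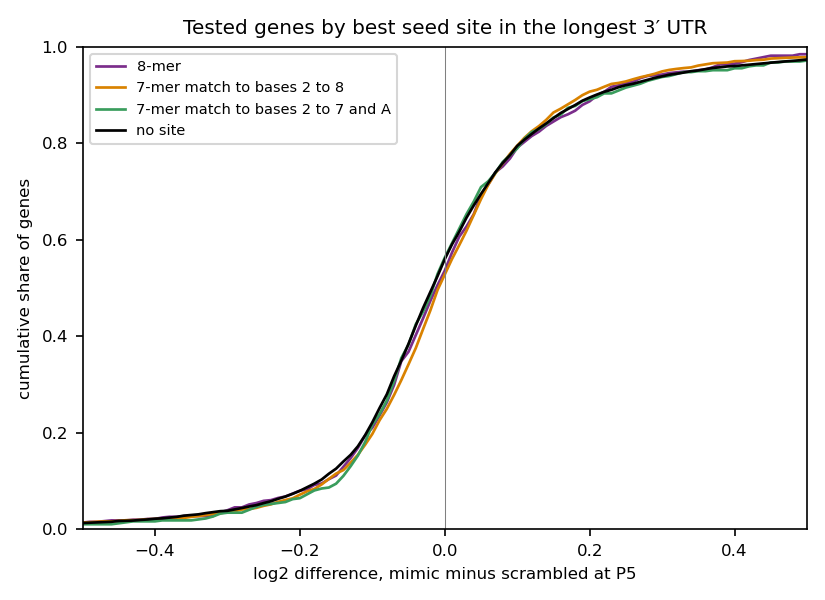
Cumulative share of tested genes (vertical axis) by log2 difference, mimic minus scrambled, at P5 (horizontal axis), for genes grouped by the best seed site in the longest 3′ UTR. The 4 curves nearly coincide, with medians between -0.0172 and -0.00824.

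Genes of the silencing machinery and of uptake were described next, since a mimic has to enter cells and load into Argonaute. Of 21 genes of microRNA processing and silencing, 7 were higher and 14 lower in mimic livers, with a median log2 difference of -0.02. It was 0.06 without scrambled replicate 1, 0.00 without mimic replicate 1 and -0.11 without scrambled replicate 2. No gene of the list was without overlap, where 5.01% of all genes were. Ago3, an Argonaute gene, had 134, 171 and 138 in mimic livers, against 194, 171 and 164 in scrambled livers, a difference of -0.26 (SE 0.13, limma p 0.0538). Scrambled replicate 1, the library with the most positive correlation with length, was also the highest for this list, by a median deviation of 0.27. Of 17 tested genes of oligonucleotide uptake and endosomes, 2 were higher and 15 lower with a median of -0.07, which was 0.00 without scrambled replicate 2. None of the genes in these 2 lists had an unadjusted limma p under 0.05, as 1.89% of all genes did.

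Injected RNA can set off an interferon response, whose genes were mostly lower in mimic than in scrambled livers. Of 39 tested genes of RNA sensing and the interferon response, 4 were higher and 35 lower in mimic livers, where 55.0% of all genes were lower, and 2 of the 35 did not overlap, where 2.12% of all genes lay lower without overlap. The median log2 difference was -0.18, and 3 genes had an unadjusted limma p under 0.05 (0.617% of all genes did so on the lower side), with an adjusted p of 1. Ifit1, an antiviral protein that binds RNA, had 189, 152 and 189 in mimic livers, against 256, 185 and 332 in scrambled livers, a difference of -0.51. Ifit3, of the same family, had 160, 149 and 133 in mimic livers, against 204, 146 and 244 in scrambled livers, a difference of -0.40. In both, scrambled replicates 1 and 3 were high and scrambled replicate 2 lay among the mimic livers. Without scrambled replicate 3 the differences were -0.31 for Ifit1 and -0.23 for Ifit3. Irf9, which carries the interferon signal to DNA, had 352, 335 and 386 in mimic livers, against 438, 393 and 437 in scrambled livers, a difference of -0.24 with no overlap. It overlaps Rnf31 on the same strand.

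The list as a whole followed the same pattern over livers. Its genes summed to 9781, 9680 and 9581 scaled counts in mimic livers, against 11328, 9676 and 11715 in scrambled livers. Scrambled replicate 2 thus lay within the mimic range. Leaving out single libraries kept the median below 0, at -0.11 without scrambled replicate 3 and -0.29 without scrambled replicate 2. At P7 the median of the same list was -0.21, and at P14 it was 0.04. Among 25 genes of inflammation and the acute phase 8 were higher and 17 lower, with a median of -0.07, and without scrambled replicate 2, which was high in these genes and in neutrophil genes, it was 0.09.

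Among genes of stress and nutrient supply, 3 of 26 in the list of cell stress and injury and 2 of 21 in that of fatty acid oxidation and ketogenesis lay higher in mimic livers without overlap, where 2.89% of all genes did. Lower without overlap were 1 of the 26 and 0 of the 21, where 2.12% of all genes were. Fgf21 is in both lists. Fgf21 (chromosome 7, 45613886 to 45615490), a hormone the liver makes in fasting and under stress, had 73, 97 and 102 in mimic livers, against 67, 13 and 32 in scrambled livers. The groups did not overlap, though mimic replicate 1 and scrambled replicate 1 were close, and the log2 difference was 1.52 (SE 0.47, limma p 0.00465, adjusted p 1). Without scrambled replicate 2, the lowest library, it was 0.94. Acot1, a thioesterase of fatty acid handling, had 123, 145 and 133 in mimic livers, against 108, 62 and 103 in scrambled livers, a difference of 0.59 (SE 0.22), or 0.34 without scrambled replicate 2. Srxn1, a gene of the oxidative stress response, had 438, 391 and 450 in mimic livers, against 331, 367 and 374 in scrambled livers, a difference of 0.25.

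The lists these genes belong to were mixed. Of 26 genes of cell stress and injury, 14 were higher and 12 lower with a median of 0.04, and of 21 genes of fatty acid oxidation and ketogenesis, 7 were higher and 14 lower with a median of -0.04, or 0.02 without scrambled replicate 2. Of 20 lipogenesis genes 8 were higher and 12 lower with a median of -0.02, likewise 0.02 without scrambled replicate 2 and 0.00 without mimic replicate 2. Fasn, the fatty acid synthase, was at 0.25 (0.16 without scrambled replicate 2) and Me1, malic enzyme, at 0.31 (0.50 without scrambled replicate 3).

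Most cholesterol genes were lower in mimic livers by a small amount. Of 25 genes of cholesterol synthesis and uptake, 22 were lower and 3 higher, where 55.0% of all genes were lower, with a median log2 difference of -0.11. None had an unadjusted limma p under 0.05, as 1.89% of all genes did. The genes summed to 15718, 14375 and 15033 in mimic livers, against 16027, 16662 and 16341 in scrambled livers. Every mimic liver was thus below every scrambled liver, by little in the case of mimic replicate 1. Among 29 lists the sums separated in this list and, on the higher side, in that of other tissues, and overlapped in the rest. The list of other tissues summed to 515, 511 and 518 in mimic livers, against 405, 506 and 499 in scrambled livers. It includes Itga7, the gene of smallest p in the comparison, which was its 1 tested gene higher without overlap. Its separation is thus not apart from that of Itga7. Fdft1, which makes squalene, had 491, 485 and 501 in mimic livers, against 523, 568 and 532 in scrambled livers, a difference of -0.13. The median stayed between -0.13 and -0.07 with each P5 library left out. It was 0.11 at P7 and 0.16 at P14.

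In 3 other lists of hepatocyte genes the difference changed sign or vanished without scrambled replicate 2. Of 20 genes of the urea cycle and amino acid breakdown 5 were higher and 15 lower, of 28 genes of drug metabolism 5 were higher and 23 lower, and of 19 genes of hepatocyte identity 3 were higher and 16 lower. Their median log2 differences were -0.06, -0.12 and -0.09. Without scrambled replicate 2 they were 0.10, 0.00 and 0.07. In this library 1 read was worth 1.413 scaled counts, the most of the 6.

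Alb and Afp, abundant transcripts of hepatocytes, had nearly the same estimated number of reads in every liver. Divided by the worth of 1 read, Alb came to 2091, 2087 and 2019 reads in mimic livers, against 2089, 2042 and 2041 in scrambled livers, and Afp to 2064, 2059 and 2022 in mimic livers, against 2063, 1924 and 2030 in scrambled livers. These are close to 1 read per base of transcript, and they varied by 1.51% and 2.64% (SD of the 6 as a share of their mean). The scaled counts of Alb ran from 1899 to 2328 in mimic and from 1855 to 2886 in scrambled livers. Apob, the long transcript of the lipoprotein apoB, came to 3482, 3637 and 2991 reads in mimic livers, against 5407, 2699 and 2804 in scrambled livers, at 0.251 reads per base and with an SD of 28.7%, so scrambled replicate 1 stood far above the rest. Of all genes tested 176 lay above 0.5 reads per base, 7 of the 19 hepatocyte genes and 10 of the 25 inflammation genes among them, and none of the 35 family targets. Other lists held such genes too, among them fatty acid oxidation and ketogenesis (7 of 21) and fetal and growth genes (4 of 19). So did the urea cycle and amino acid list (3 of 20) and the neutrophil list (3 of 20). A difference in scaled counts of such a gene moves with the worth of 1 read, and no statement on the level of Alb or Afp is made from it.

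Among genes of drug metabolism, Cyp2c55, a cytochrome P450 gene, had 5, 6 and 7 in mimic livers, against 7, 34 and 43 in scrambled livers. The scrambled livers split, with scrambled replicate 1 at the level of the mimic livers. The log2 difference was -1.73 (SE 0.46, limma p 0.00124, adjusted p 1), and without scrambled replicate 1 it was -2.50 with an adjusted p of 0.00633. Cyp2c genes lie side by side and are so alike that reads may be assigned to the wrong one. Sult2a1, a sulfotransferase of steroids and bile acids, had 242, 176 and 220 in mimic livers, against 200, 352 and 296 in scrambled livers, a difference of -0.38 with overlap. It was -0.61 without scrambled replicate 1, -0.21 without scrambled replicate 2 and -0.25 without mimic replicate 2. For bile acids, Abcb11, the export pump, was lower without overlap at 1370, 1041 and 1375 in mimic livers, against 1408, 1407 and 1478 in scrambled livers, and so was Nr0b2, a repressor of bile acid synthesis, at -0.31. Without mimic replicate 2 the difference of Abcb11 was -0.06, against -0.19 with all 6 livers, and without scrambled replicate 3 that of Nr0b2 was -0.19. Of the 18 genes of that list 5 were higher and 13 lower, with a median of -0.05, which was 0.01 without scrambled replicate 2 and -0.14 without scrambled replicate 3. Lower without overlap were 2 of the 18, where 2.12% of all genes were.

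Proliferation genes leaned lower by amounts within the spread of single livers. Of 25 mitosis genes 22 were lower and 3 higher with a median log2 difference of -0.07, and of 25 DNA replication genes 22 were lower and 3 higher with a median of -0.06. Bub1, a spindle checkpoint kinase, had 250, 243 and 305 in mimic livers, against 326, 304 and 338 in scrambled livers, a difference of -0.28 (limma p 0.1). The summed mitosis genes were at 13706, 13033 and 16463 in mimic livers, against 16225, 14686 and 14465 in scrambled livers, so mimic replicate 3 was the highest of all. The mitosis median was 0.00 without mimic replicate 2 and also without scrambled replicate 1, and -0.16 without mimic replicate 3. The DNA replication median was 0.01 without mimic replicate 2 and -0.13 without mimic replicate 3.

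In genes of blood precursors single livers stood out. In bulk tissue fewer cells of a type and less RNA per cell cannot be told apart. All 20 neutrophil genes were lower in mimic livers, with a median log2 difference of -0.21, and their sum was 7179, 6001 and 6682 in mimic livers, against 6638, 11956 and 5715 in scrambled livers. Scrambled replicate 2 alone was high, and without it the median was 0.10. Of 16 B cell genes 15 were higher in mimic livers, with a median of 0.20, and their sum was 1947, 1683 and 1269 in mimic livers, against 1596, 1949 and 904 in scrambled livers. Here scrambled replicate 3 was the low one, and without it the median was -0.15, while without mimic replicate 1 it was 0.06 and without scrambled replicate 2 it was 0.44. Of 23 red cell genes 5 were higher and 18 lower with a median of -0.06, which was 0.05 without mimic replicate 2 and -0.20 without mimic replicate 3. Of 15 platelet genes 11 were higher and 4 lower with a median of 0.05. Without mimic replicate 3 and without scrambled replicate 1 it was -0.04, without mimic replicate 2 it was 0.25, without scrambled replicate 3 it was 0.17, and without mimic replicate 1 it was 0.01.

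Bile duct markers were higher in mimic livers in 9 of 10 genes, with a median log2 difference of 0.42, where 45.0% of all genes were higher. Besides Krt19, Epcam, a surface protein of epithelia, had 140, 152 and 239 in mimic livers, against 97, 162 and 79 in scrambled livers, a difference of 0.67, or 0.44 without mimic replicate 3. Krt7, another keratin of bile ducts, had 29, 55 and 99 in mimic livers, against 25, 51 and 25 in scrambled livers, and Sox9, a transcription factor of duct cells, had 154, 123 and 186 in mimic livers, against 108, 124 and 102 in scrambled livers. In all 4 markers mimic replicate 3 was the highest library, and for Krt7, Epcam and Sox9 scrambled replicate 2 lay among or above the other mimic livers. Of the 10 genes 1 was higher without overlap, where 2.89% of all genes were. With listed markers too low to test included, the list summed to 2112, 2063 and 2601 in mimic livers, against 1747, 2384 and 1683 in scrambled livers. Scrambled replicate 2 thus lay within the mimic range. The median was 0.23 without mimic replicate 3 and 0.58 without mimic replicate 2, the range over the P5 libraries left out in turn. It was 0.14 at P7 and -0.06 at P14.

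Other cells of the liver showed small medians. Of 18 macrophage genes 8 were higher and 10 lower with a median of 0.00, and of 18 genes of sinusoidal endothelium 9 were higher and 9 lower with a median of 0.01. Of 19 genes of stellate cells and fibroblasts 8 were higher and 11 lower with a median of -0.06, which turned to 0.02 without mimic replicate 3 and 0.03 without scrambled replicate 1, and was -0.16 without mimic replicate 2 and -0.14 without scrambled replicate 3. Dcn, a matrix proteoglycan of fibroblasts, had 711, 775 and 663 in mimic livers, against 780, 843 and 858 in scrambled livers, without overlap and with a difference of -0.21. Of the 19 genes 1 was lower without overlap, where 2.12% of all genes were. Acta2, the smooth muscle actin of activated stellate cells, was at 0.34 with overlap, or 0.18 without mimic replicate 2 and 0.59 without mimic replicate 1. Of 10 tested marker genes of other tissues, Dcx, a microtubule protein of young neurons, had 44, 71 and 87 in mimic livers, against 47, 18 and 15 in scrambled livers, a difference of 1.43 (SE 0.37, limma p 0.00114) with mimic replicate 1 and scrambled replicate 1 out of order.

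Of 15 immediate early genes 10 were higher and 5 lower in mimic livers, with a median of 0.10, and Jun was at 0.33 (0.51 without scrambled replicate 3 and 0.21 without scrambled replicate 2). Of 17 clock genes 8 were higher and 9 lower with a median of -0.01, which ran from -0.11 without mimic replicate 2 to 0.19 without scrambled replicate 1. Of 19 fetal and growth genes 4 were higher and 15 lower with a median of -0.06, or 0.03 without scrambled replicate 2. Of 19 genes of glucose and glycogen metabolism 8 were higher and 11 lower with a median of -0.03, or 0.04 without scrambled replicate 1, 0.03 without scrambled replicate 2 and 0.00 without mimic replicate 2.

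**Figure D4:**
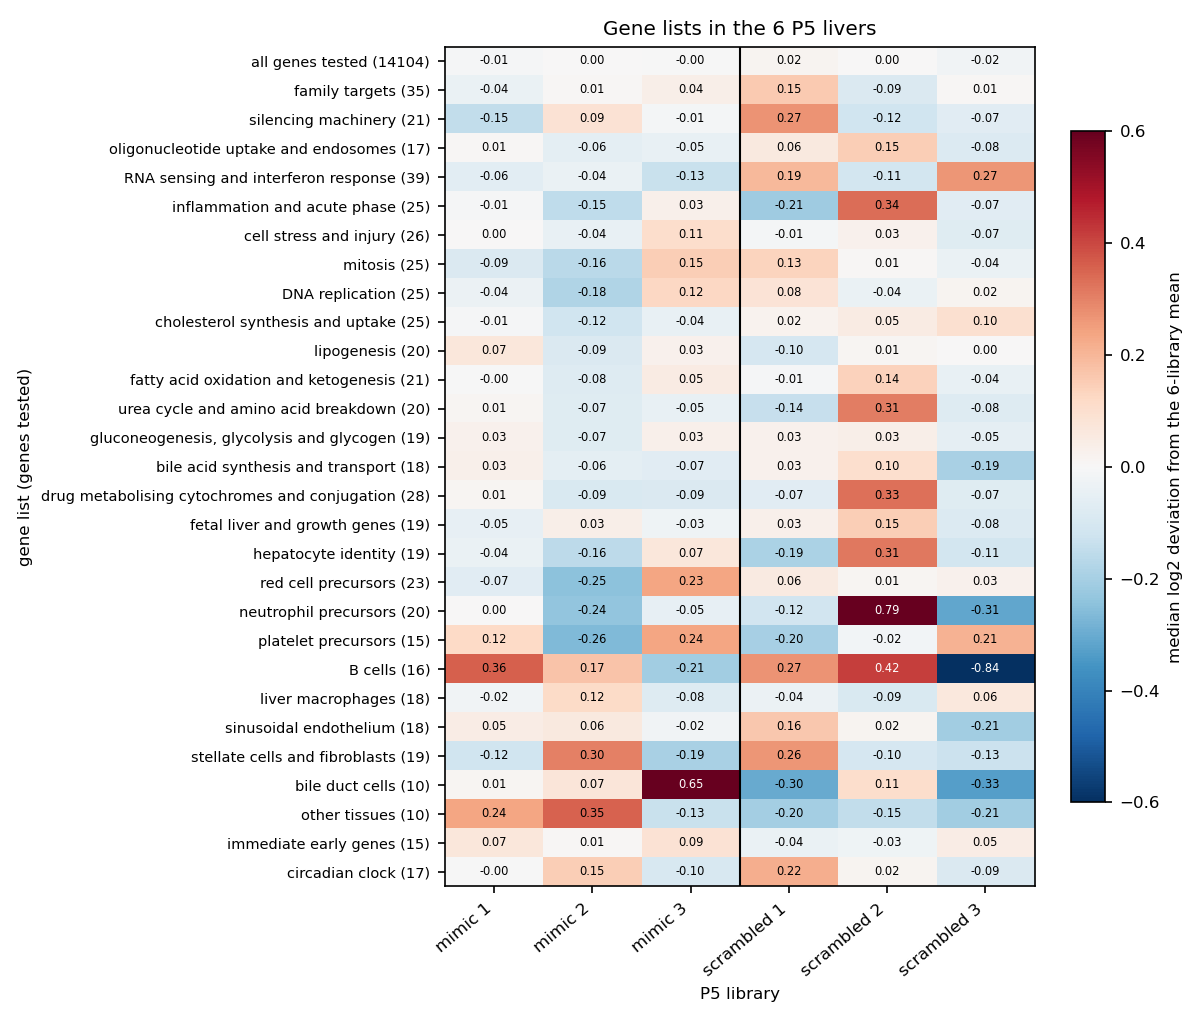
Median log2 deviation from the mean of the 6 P5 libraries for each gene list (rows, with the number of genes tested) in the 3 mimic livers (left of the line) and the 3 scrambled livers (right of it); colours saturate at the ends of the bar. Single livers carry most of the deviations: 0.79 for neutrophil genes in scrambled replicate 2, -0.84 for B cell genes in scrambled replicate 3 and 0.65 for bile duct genes in mimic replicate 3.

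Livers at P5 were also compared by an index of developmental age. The index was the mean log2 level of 113 genes that were higher in scrambled livers at P14 than at P7, by 2-fold or more and without overlap, minus that of 543 genes that were lower in the same way. It was -1.29, -1.17 and -1.61 in mimic livers at P5, against -1.62, -1.13 and -1.55 in scrambled livers. The lowest and the highest of the 6 were both scrambled livers, so the index did not separate the groups. At P7 it was -0.33, -0.52 and -0.56 in mimic livers, against -0.71, -1.22 and -1.35 in scrambled livers. Scrambled replicates 2 and 3 at P7 thus lay within the range at P5. The genes of the index were chosen with the scrambled livers at P7 and not with the mimic livers. That choice by itself lowers the index of the scrambled livers at P7, so mimic and scrambled livers of that day cannot be compared by it. The index did not fully separate P5 from P7 livers, so a small difference in age at P5 could not be seen with it.

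What was seen at P5 was for the most part not seen again at the later days. The livers of those days entered the choice of genes only through the level filter and the common estimate of spread. At P7 the scrambled livers include replicate 3, which had 30412 genes above 0. Of the 10 genes of smallest p without overlap on the higher side, 4 were higher in mimic livers at P7 and 4 at P14. Of the 10 on the lower side, 1 was lower at P7 and 7 at P14. Over the 266 genes with an unadjusted p under 0.05, 34.6% had the same sign at P7 and 48.5% at P14, against 44.9% and 49.0% of all genes tested. With an unadjusted limma p under 0.05 at the later day as well, 11 of the 266 had the same sign and 35 the opposite sign at P7, and 11 had the same and 24 the opposite sign at P14. Over all genes tested, 7.61% had such a p at P7 and 5.41% at P14. The spread of a gene was estimated over all days together, so a small p at P5 makes a small p at another day more likely. These counts are therefore no sign of a reversal.

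The effect at P5 minus the mean effect at P7 and P14 was tested for every gene. By limma 0 of 14104 genes (0.0%) reached an adjusted p under 0.05, while 528 (3.74%) did so without adjustment. The smallest adjusted p was 0.190, shared by Itga7 at 1.31 and Sqle, an enzyme of cholesterol synthesis, at -0.93. In Itga7 the mimic livers at P7 had 50, 51 and 42, against 75, 51 and 57 in scrambled livers, and at P14 they had 108, 91 and 97, against 131, 158 and 197. The sign was thus positive at P5 and negative at both later days. Sqle at P5 had 575, 519 and 584 in mimic livers, against 650, 516 and 581 in scrambled livers, a log2 difference of -0.05. At P14 its log2 difference was 1.64. Sema3g, a secreted semaphorin, and Col15a1 followed Itga7 in pattern, with differences between days of 2.93 and 1.91 and adjusted p of 0.265 and 0.320.

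**Figure D5:**
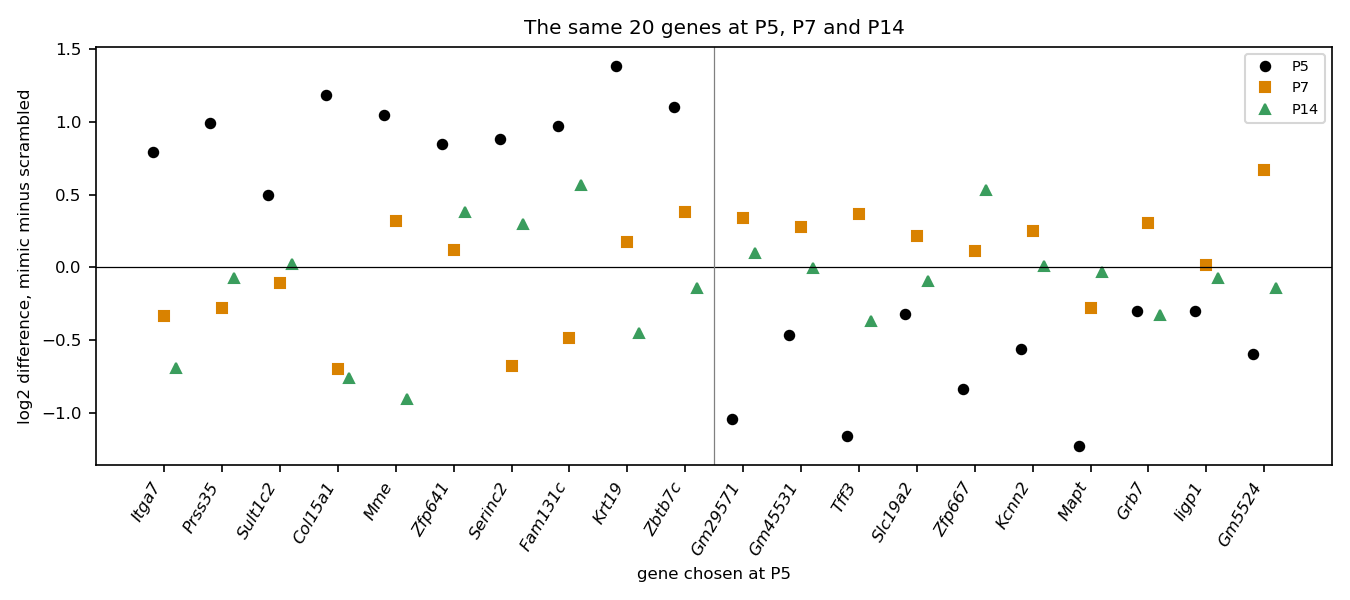
Log2 difference, mimic minus scrambled, at 3 days (circles P5, squares P7, triangles P14) for the 20 genes of smallest p without overlap at P5. Itga7 stands at 0.79 on P5, -0.34 on P7 and -0.69 on P14, and on the lower side 9 of the 10 genes are above 0 at P7.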

How the data were processed

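Stranded mRNA libraries of 18 livers were sequenced by the authors. The deposited table holds a score per gene and library: whole numbers that, judged from the values, are read counts divided by a size factor and rounded by the authors. The submitters' processing notes name DESeq2 1.26.0, featureCounts 1.6.5, Picard 2.21.7, STAR 2.6.1d and Trimmomatic 0.39, and the build mm10 (GRCm38). Raw counts were not analysed here, so no count model was run.

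The test used limma 3.58.1 in R 4.3.3 on log2(value + 1), with a mean for each of 6 groups over all 18 libraries and a mean-variance trend in eBayes (residual degrees of freedom 12, prior 6.49). Genes with a mean under 10 were left out, and p-values were adjusted by Benjamini-Hochberg over 14104 genes at 0.05. The pseudocount makes differences of low genes appear smaller. The script was tested on simulated data. Seed matches were searched in the longest 3′ UTR of GENCODE M21, in which 31108 of 31165 gene IDs were found, on the transcript strand only. The worth of 1 read was fitted to the whole numbers from 3 to 120 and tested on simulated data.

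Named genes are the 10 of smallest p each way without overlap, up to 5 each way with a mean of 1000 or more, the listed targets, up to 4 genes of smallest p in each list, and Alb and Afp. A few genes that fall under this rule stay in the fit and in the counts and are not reported here by name. Itga7, Sqle, Sema3g and Col15a1 were named between days for their small p, and Ly6g, Orm1, Sftpc, Cacna1b, Igll1 and Xist, in which single libraries stand apart, were chosen after their values were seen. The genes, lists and tests were chosen with earlier results of these data known. Figures and lists were made with matplotlib 3.10.9, pandas 2.3.3, numpy 2.4.6 and Python 3.11.15, and in R with the package data.table, version 1.17.8.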

Additional observations from a re-analysis of the deposited data

How the results depend on the processing

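All 19 alternatives left the comparison without a gene past a limma adjusted p of 0.05, except that leaving out scrambled replicate 1 gave 1, Cyp2c55 (0 to 1 over the P5 libraries left out in turn). The count of genes with an unadjusted limma p under 0.05, 266 as reported, was 574 with no filter on low values, 161 with a mean of 50 or more, 440 with the length slope as a covariate and 478 with that covariate in only the 6 P5 libraries, and 251 to 854 with each P5 library left out, the most without scrambled replicate 1 and 444 without scrambled replicate 3. For the difference between days the count of 0 became 1 without P7 scrambled replicates 2 and 3 (Myh8, adjusted p 0.00351) and 0 to 1 with each P5 library left out (Cyp2c55, adjusted p 0.0393, without scrambled replicate 1). The alternatives without P7 scrambled replicates 2 and 3, with the Y-linked level, and with the length slope in only the P5 libraries were chosen after seeing the data.

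At P5 same-numbered mimic and scrambled livers had deviations from their group mean correlated at -0.463, -0.0902 and 0.261 across genes. Livers of different number had -0.480 to 0.518. Deviations within a group add up to 0, so these values depend on each other and cannot show whether the livers were paired. With a replicate block in the fit the counts were 0 genes at an adjusted and 285 at an unadjusted p under 0.05.

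Of 104 genes recomputed, 85 kept the sign of their log2 difference under every alternative run. For 20 of these the sign with a library left out was fixed by the way they were chosen, since their groups do not overlap. It was fixed as well for every other gene without overlap, among them Fgf21, Srxn1, Acot1, Irf9, Fdft1, Cldn1 and Dcn. The 19 genes with a change of sign were targets near 0, Sqle, Col4a2 and Pax5. With the length slope as a covariate the log2 difference was -0.0129 for Ccne1, 0.00916 for Kif23, -0.00645 for Vegfa and 0.000119 for Plag1. With it in only the P5 libraries these were -0.0106, 0.0162, -0.0224 and 0.00768. With the Y-linked level as a covariate it was -0.0640 for Ccne1, -0.0162 for Wee1 and 0.00437 for Kif23. Array weights gave -0.0119 for Vegfa and -0.0246 for Ccnt2, quantile normalization 0.0254 for Ccnd3 and -0.0694 for Fgf2, and a pseudocount of 5 gave -0.0167 for Fgf2. With each P5 library left out the log2 difference ran from -0.10 to 0.0384 for Ccnd3, -0.0577 to 0.14 for Ccne1, -0.16 to 0.0859 for Cdk6, -0.0806 to 0.0905 for Wee1, -0.13 to 0.0253 for Cdca4, -0.12 to 0.17 for Kif23, -0.16 to 0.0127 for Anln, -0.22 to 0.0289 for Birc5, -0.11 to 0.14 for Vegfa and -0.55 to 0.40 for Fgf2. In the same way it ran from -0.16 to 0.23 for Igf1r, -0.0215 to 0.0613 for Map2k1, -0.0213 to 0.11 for Smad7, -0.0279 to 0.0362 for Ccnt2, -0.39 to 0.27 for Plag1, -0.15 to 0.0591 for Usp15, -0.14 to 0.0287 for Sqle, -0.0408 to 0.47 for Col4a2 and -0.15 to 0.77 for Pax5. The cause of these changes was not tested. The median of genes with a seed match stayed between -0.03 and 0.04 in all settings run.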
